A study of Rattus norvegicus with 17 samples.

Results

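The genes described here are 10 CC chemokine system genes with a part in inflammation: the ligands Ccl2, Ccl3, Ccl4, Ccl5, Ccl6, Ccl7, Ccl11, Ccl20 and Ccl22 and the receptor Ccr2. They were chosen by name, as every non-control probe whose gene name on the array was one of these symbols. This gave 12 probes of 41012 on the array, since Ccl7 and Ccl22 had 2 probes each, and all 12 were among the 27101 probes bright enough to test. The study asked how dietary calcium bears on the colon mucosa of female HLA-B27/β2-microglobulin transgenic rats of the inbred strain Fisher 344. The animals were 8 to 10 weeks old at the start and ate a purified Western-type diet that held 120 mmol calcium per kg in the 8 high calcium rats, at the expense of glucose, and 30 mmol per kg in the 9 low calcium rats. Every animal carried these human transgenes, which are known to cause spontaneous colitis in rats, so both groups belong to the disease model and no animal without the transgenes is in the comparison. Scraped mucosa of each rat was labelled with Cy5 and hybridised with a Cy3-labelled pool of all animals, and each value below is a log2 ratio of the rat to that pool. A value of 0 therefore means the level of the pool, and a difference of -1 means a 2-fold lower level.

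Chemokines are small secreted proteins that draw leukocytes along a gradient by binding receptors on their surface, and CC chemokines are named for their adjacent cysteines. Ccl2 and Ccl7 are monocyte attractants that act through Ccr2, Ccl11 (eotaxin) attracts eosinophils through Ccr3, and Ccl3, Ccl4 and Ccl5 attract monocytes and T cells, Ccl3 and Ccl5 in part through Ccr1. Ccl20 is made by gut epithelium and calls in cells that carry Ccr6, and Ccl22 attracts T cells that carry Ccr4. Many of these genes are switched on by NF-kappaB, the transcription factor that tumour necrosis factor and interleukin 1 activate.

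On rat chromosome 10 most of these genes lie in clusters. Per the file headers, which use build rn3, the Ccl2 probe (transcript NM_031530) lies at chr10:70271542-70271601, the probes of Ccl7 (NM_001007612) at chr10:70282297-70282356 and chr10:70282266-70282325, and the Ccl11 probe (NM_019205) at chr10:70296723-70296782. The Ccl7 probes share 29 of their 60 bases and are not independent. A second cluster on the same chromosome holds the probes of Ccl5, Ccl6, Ccl3 (chr10:71758981-71759040) and Ccl4 (chr10:71774637-71774696). The Ccl20 probe lies at chr9:82626766-82626825, the Ccl22 probes at chr19:10702397-10702456 and chr19:10703593-10703652, and the Ccr2 probe at chr8:128913542-128913601. Whether a probe lies in a coding part or an untranslated part of its exon was not looked up, because the annotation used here is of another build. In the RefSeq annotation of build GRCr8, Ccl2, Ccl7 and Ccl11 are consecutive chemokine genes, as are Ccl6, Ccl3 and Ccl4.

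The stretches upstream of Ccl7 and Ccl20 are shown because these genes varied over a similar range among the rats but not together. RefSeq (build GRCr8) gave the upstream stretch for 5 of the 10 genes (Ccl7, Ccr2, Ccl6, Ccl20 and Ccl22), and each window below is the 250 bases before the gene's start. Both lie on the plus strand, at chr10:67513845-67514094 for Ccl7 and chr9:91836909-91837158 for Ccl20. Capitals mark matches, on either strand, to an NF-kappaB pattern (GGGNNNNNCC), an AP-1 pattern (TGANTCA) and a TATA box pattern (TATAAA).
Ccl7: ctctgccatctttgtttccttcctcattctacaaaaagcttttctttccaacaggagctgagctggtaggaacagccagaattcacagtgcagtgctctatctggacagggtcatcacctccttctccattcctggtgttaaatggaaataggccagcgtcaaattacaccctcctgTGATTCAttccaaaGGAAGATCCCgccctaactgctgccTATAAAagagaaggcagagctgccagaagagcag
Ccl20: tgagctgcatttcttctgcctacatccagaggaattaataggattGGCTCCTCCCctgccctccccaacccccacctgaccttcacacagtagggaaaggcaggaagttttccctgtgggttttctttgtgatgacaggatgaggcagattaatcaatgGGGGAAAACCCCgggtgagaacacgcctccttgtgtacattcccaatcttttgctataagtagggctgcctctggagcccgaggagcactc
Ccl7 held all 3 patterns, with the AP-1 match starting 73, the NF-kappaB match 59 and the TATA match 34 bases before the start. Ccl20 held overlapping NF-kappaB matches, starting 91 to 89 bases before the start, and another starting 205 bases before it, with no AP-1 or TATA match. Of 33469 rat promoter windows of the same length, 42.3% held the NF-kappaB pattern, 6.34% the AP-1 pattern and 12.9% the TATA pattern. A match describes the letters only, and binding was not measured.

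All 12 probes were well above background on all 17 arrays, with 0 saturated arrays and 0 flagged spots. Over the arrays, 60.0% to 72.0% of probes were well above background, and the number of arrays limits the precision. Of the colon epithelial markers, 16 of 16 were bright enough to test. Because 27101 of all 41012 probes were too, this does not test the tissue label. The number of probes called changed when rat 3 (high calcium) or rat 16 (low calcium), both hybridised on slide 1, was left out. By limma it was 0 of the 27101 probes with all rats, 193 without rat 3, 38 without rat 16 and 328 without both. Such counts do not measure how far a rat lies from its diet. Leaving out both was decided after the data were seen. Without both, the differences given below became -0.60 for Ccl2, -0.60 for Ccl7, -0.41 for Ccl11, -0.31 for Ccl3 and -0.30 for Ccl20, and 0 of the 12 probes passed the adjusted threshold. In Ccl2, Ccl7 and Ccl11, rat 3 lay above the high calcium mean and rat 16 below the low calcium mean. Leaving them out could therefore only make these differences more negative.

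No chemokine gene passed the test of the diets after adjustment over all probes. Lower at high calcium at an unadjusted p below 0.05 were the monocyte attractants Ccl2 (-0.46) and Ccl7 (-0.47) and the eosinophil attractant Ccl11 (-0.34). Ccl20 differed by -0.38, at an unadjusted p of 0.0591 by limma. Of the 10 genes, 8 had a negative difference and 2, Ccl5 and Ccl6, a positive one, where 46.0% of all tested probes had a negative difference. The median difference was -0.12 over the 10 genes and 0.0069 over all tested probes. By limma with Benjamini-Hochberg adjustment 0 of 12 probes passed an adjusted p of 0.05 (0% of all 27101 probes), and the smallest adjusted p was 0.473, for Ccl11. At an unadjusted p below 0.05, 4 probes of 3 genes (Ccl2, Ccl7 with both probes, and Ccl11) were lower and 0 were higher, where 4.84% of all probes were lower and 3.95% higher at that level. The probes are not independent, since Ccl2, Ccl7 and Ccl11 varied together. The count of 4 was 0 without high calcium rat 13 or 18, 1 without high calcium rat 17, and 6 without rats 3 and 16.

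**Figure D1:**
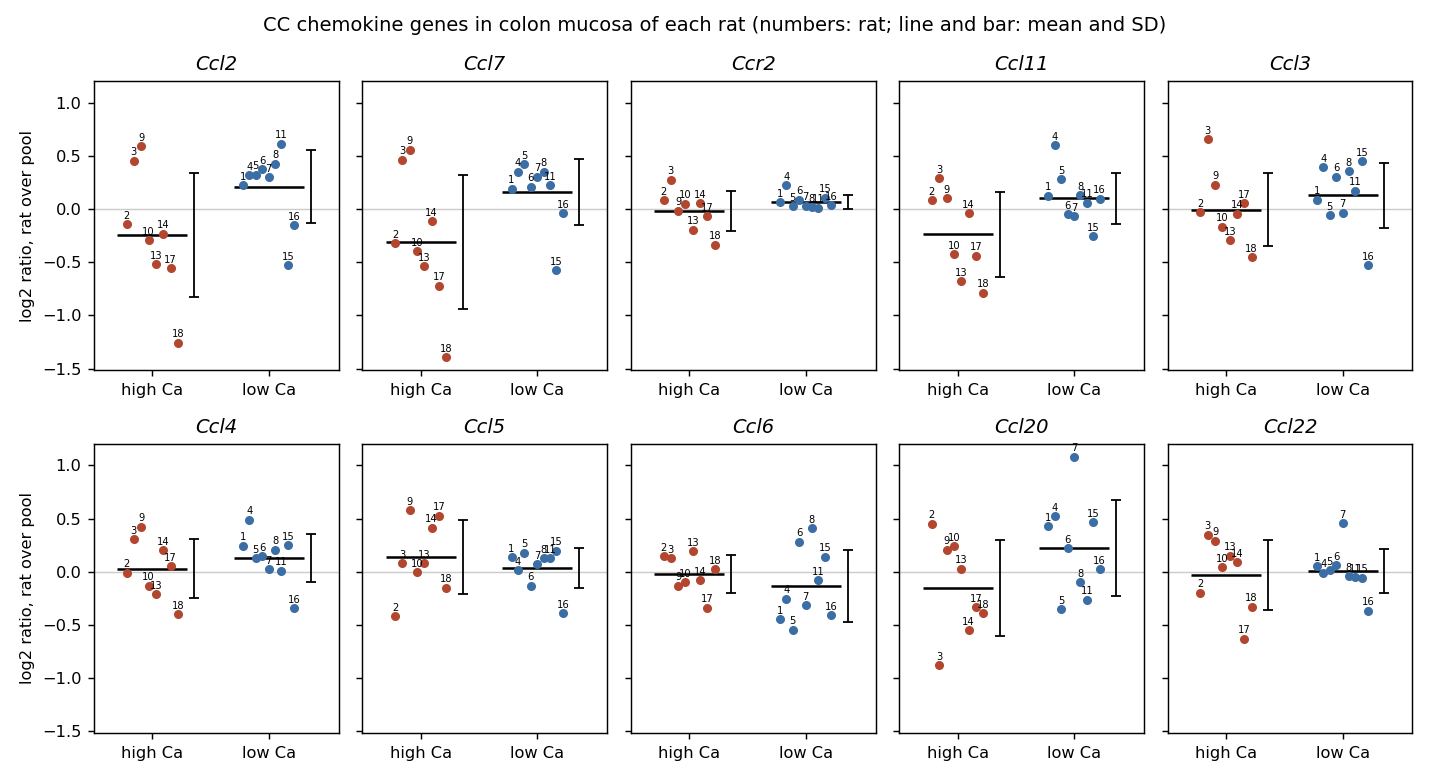
Log2 ratio of each rat to the pool for the 10 genes (brightest probe of each), 8 high calcium rats in red and 9 low calcium rats in blue, with rat numbers, and the mean and SD in black. Ccl2 and Ccl7 of rat 18 lie at -1.26 and -1.39, and in each gene the diets overlap.

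**Figure D2:**
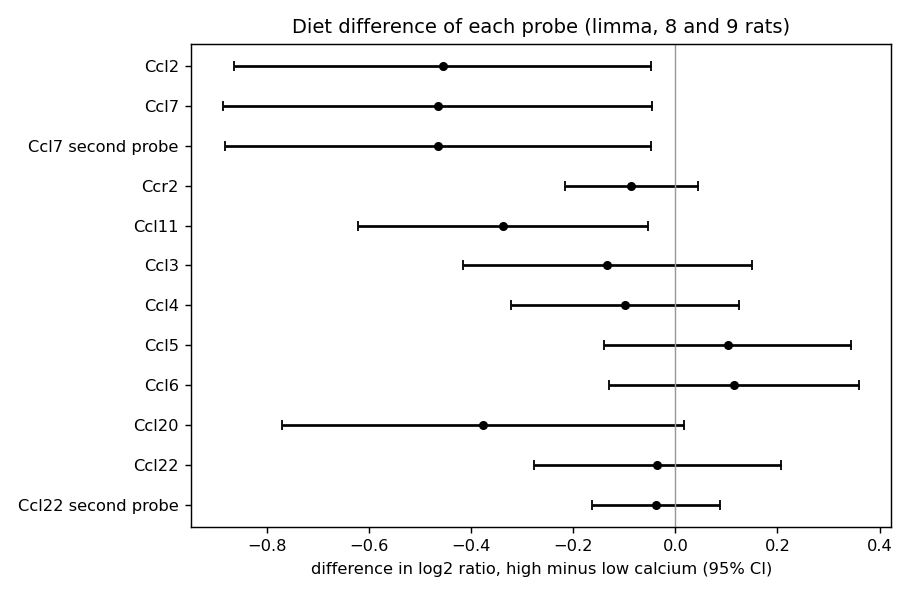
Difference in log2 ratio, high minus low calcium, of the 12 probes with its 95% confidence interval from limma. The intervals of Ccl2, both Ccl7 probes and Ccl11 lie below 0 before adjustment, and those of the other probes include 0.

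Ccl2, the principal attractant of inflammatory monocytes, ran from -1.26 (rat 18) through a median of -0.26 to 0.59 (rat 9) in high calcium rats, and from -0.53 (rat 15) through a median of 0.32 to 0.62 (rat 11) in low calcium rats. The diets overlapped: 6 of 8 high calcium rats were below the low calcium median, and 2 of them below every low calcium rat, while rats 3 and 9 were as high as low calcium animals. The means were -0.24 ± 0.58 in high calcium rats and 0.21 ± 0.34 in low calcium rats (SD, n = 8 and 9). The difference was -0.46 ± 0.20 (SE), a level 1.37-fold lower in high calcium rats, with an unadjusted p of 0.0305 and an adjusted p of 0.509 by limma. The probe was printed 10 times on each array, and the SD over those spots was 0.021 to 0.064, which covers spot-to-spot error within an array and not that of RNA, labelling or hybridisation.

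Ccl7, a neighbour of Ccl2 that binds the same receptor and also Ccr1, followed the same animals. It ran from -1.39 (rat 18) through a median of -0.36 to 0.56 (rat 9) in high calcium rats, and from -0.58 (rat 15) through a median of 0.22 to 0.42 (rat 5) in low calcium rats. Again 6 of 8 high calcium rats lay below the low calcium median, and 2 lay above every low calcium rat. The difference was -0.47 ± 0.20 (SE), or 1.38-fold lower, with an adjusted p of 0.511 by limma. The overlapping probe gave -0.46 ± 0.20 and correlated with it at r = 0.99 over the 17 rats. Without rat 18 the difference was -0.31 for each of Ccl2 and Ccl7.

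Ccr2, the receptor of Ccl2 and Ccl7 on monocytes, ran from -0.33 (rat 18) through 0.02 to 0.28 (rat 3) in high calcium rats, and from 0.01 (rat 11) through 0.04 to 0.22 (rat 4) in low calcium rats. The low calcium rats were close together, and 4 high calcium rats lay below all of them. The difference was -0.09 ± 0.06 (SE, adjusted p = 0.749 by limma). The probe was dim, at 46.6 to 130.1 Cy5 units over background in high calcium rats and 89.6 to 148.7 in low calcium rats, and both the difference and its error moved with the settings. The difference was -0.22 (unadjusted p = 0.00205, adjusted p = 0.203 by limma) in the deposited series matrix and -0.44 ± 0.17 with the scanner's processed signals, against -0.15 ± 0.11 with an offset of 0 and -0.06 with array weights. Over single rats left out it ran from -0.13 (without rat 3) to -0.04 (without rat 18).

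Ccl11, the eotaxin next to Ccl7, had the smallest p among the 10 genes. It ran from -0.79 (rat 18) through a median of -0.23 to 0.29 (rat 3) in high calcium rats, and from -0.26 (rat 15) through 0.10 to 0.60 (rat 4) in low calcium rats. Rats 10, 13, 17 and 18 on high calcium lay below all 9 low calcium animals, and the other 4 lay within their range. The difference was -0.34 ± 0.14 (SE), 1.26-fold lower in high calcium rats, with an unadjusted p of 0.0219 and an adjusted p of 0.473 by limma. Its receptor Ccr3 was well above background on 0 of 17 arrays. Of the genes listed for the eotaxin and type 2 axis, 10 were tested, with 0 past the adjusted threshold. Among these 4 were lower and 6 higher, where 46.0% of all tested probes had a negative difference. Those with the smallest p were Il1rl1, the receptor of the alarmin Il33 (-0.40 ± 0.10), Arg1, an arginase of alternatively activated macrophages (-1.20 ± 0.33), and Prg2, an eosinophil granule protein (0.28 ± 0.08). The eosinophil genes Epx and Rnase2 were not well above background on any array.

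Ccl3 and Ccl4, neighbouring genes for macrophage inflammatory proteins, differed little in mean. Ccl3 ran from -0.46 (rat 18) through -0.04 to 0.66 (rat 3) in high calcium rats and from -0.53 (rat 16) through 0.17 to 0.45 (rat 15) in low calcium rats. Its difference was -0.13 ± 0.14 (SE, adjusted p = 0.826 by limma). Its extremes were rats 3 and 16, the highest high calcium and the lowest low calcium rat. Leaving them out, a choice made after the data were seen, could only make the difference more negative. It then became -0.31 ± 0.10 (SE, unadjusted p = 0.00438, adjusted p = 0.150 by limma), and these p-values do not test the diets. Ccl4 ran from -0.40 (rat 18) through 0.02 to 0.42 (rat 9) in high calcium rats and from -0.34 (rat 16) through 0.15 to 0.49 (rat 4) in low calcium rats. Its difference was -0.10 ± 0.11 (SE, adjusted p = 0.840 by limma), and the diets overlapped except for rat 18, which lay below every low calcium rat.

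Ccl5, which activated T and NK cells secrete, and Ccl6, a myeloid chemokine of rodents, had the positive differences. Ccl5 ran from -0.42 (rat 2) through 0.08 to 0.58 (rat 9) in high calcium rats and from -0.39 (rat 16) through 0.13 to 0.20 (rat 15) in low calcium rats. High calcium rats 9, 14 and 17 were above every low calcium rat, and the difference was 0.10 ± 0.12 (SE, adjusted p = 0.849 by limma). Ccl6 ran from -0.34 (rat 17) through -0.03 to 0.19 (rat 13) in high calcium rats and from -0.54 (rat 5) through -0.25 to 0.41 (rat 8) in low calcium rats. Its high calcium values lay inside the range of the low calcium ones, and the difference was 0.11 ± 0.12 (SE, adjusted p = 0.830 by limma).

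Ccl20, the epithelial attractant of cells with Ccr6, ran from -0.88 (rat 3) through -0.15 to 0.45 (rat 2) in high calcium rats and from -0.35 (rat 5) through 0.22 to 1.08 (rat 7) in low calcium rats. Rat 3, among the highest for Ccl2, was the lowest for Ccl20, while rats 17 and 18, the lowest for Ccl2, were low here too, at -0.34 and -0.39. The means were -0.15 ± 0.46 in high calcium rats and 0.22 ± 0.45 in low calcium rats (SD), and the difference was -0.38 ± 0.19 (SE, unadjusted p = 0.0591, adjusted p = 0.588 by limma). With array weights it was -0.16. Ccr6, its receptor, ran from -0.54 (rat 3) through -0.22 to 0.09 in high calcium rats and from -0.33 through 0.01 to 0.31 (rat 7) in low calcium rats, a difference of -0.25 ± 0.09 (SE, unadjusted p = 0.0115, adjusted p = 0.398 by limma). Of the genes listed for the Ccl20 and type 17 axis, 6 were tested and all 6 were lower, with a median of -0.10 and 0 past the adjusted threshold. Ccr6 is among these 6, and 46.0% of all tested probes had a negative difference. After Ccr6 the smallest p belonged to Cd40lg, a costimulatory ligand of T cells (-0.15 ± 0.07), and Ltb, a lymphotoxin (-0.16 ± 0.09). Il23a and Il12b were not well above background on any array, and Il17a, Il17f, Il22 and Il23r were not analysed here.

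Ccl22, which dendritic cells and macrophages make, ran from -0.63 (rat 17) through 0.07 to 0.35 (rat 3) in high calcium rats and from -0.36 (rat 16) through -0.01 to 0.46 (rat 7) in low calcium rats. The difference was -0.04 ± 0.12 (SE, adjusted p = 0.957 by limma), with a 95% interval of -0.28 to 0.21, and its sign turned in 5 of the other settings and without rat 7, 17 or 18. The dim probe of the pair gave -0.04 ± 0.06 and correlated with the brighter one at r = 0.37 (permutation p = 0.204, Spearman rho = 0.48), so the pair cannot be taken as repeated measures of one level. Ccr4, its receptor, differed by -0.07 ± 0.06 (SE), and Ccl17, the other ligand of Ccr4, by -0.25 ± 0.17 (adjusted p = 0.726 by limma).

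Within the 4 slides that held 2 rats of each diet, only Ccl7 and Ccl11 kept a negative difference on every slide among the 10 genes. Ccl11 gave -0.16, -0.28, -0.39 and -0.51 on slides 1 to 4, and Ccl7 gave -0.08, -0.23, -0.65 and -0.88. Ccl2 gave 0.07, -0.20, -0.74 and -0.95, so that its difference lay mainly on slides 3 and 4, where rats 13 and 14 or 17 and 18 were the high calcium animals. Ccl20 gave -0.48, 0.29, -0.75 and -0.46. With slide as a block the differences were -0.45 for Ccl2, -0.46 for Ccl7, -0.34 for Ccl11 and -0.35 for Ccl20, and 0 probes passed the adjusted threshold. Low calcium rat 1 was alone on its slide.

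**Figure D3:**
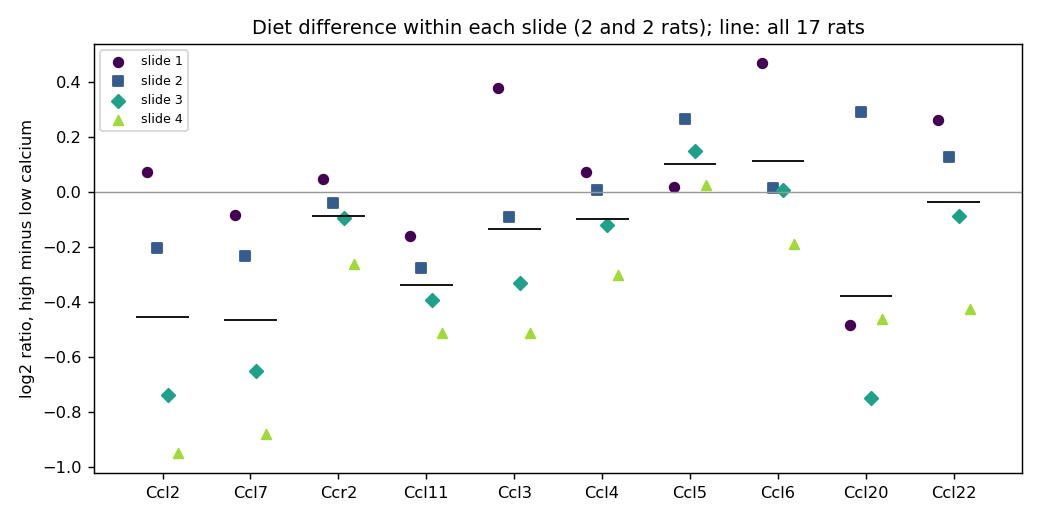
Difference in log2 ratio, high minus low calcium, of each gene within slides 1 to 4 (2 high and 2 low calcium rats each), with a black line at the difference over all 17 rats. The slide values of Ccl11 run from -0.16 to -0.51 and those of Ccl2 from 0.07 to -0.95.

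The spread among rats of one diet is described next. The within-diet SD had a median of 0.30 over the 10 genes and 0.12 over all tested probes. It was 0.47 for Ccl2, 0.49 for Ccl7 and 0.45 for Ccl20, above 99.7%, 99.7% and 99.6% of tested probes. Ccr2 had 0.14, above 66.2% of probes. The comparison was not matched on brightness, and the offset of 50 in the background correction narrows the log ratios of dim probes such as that of Ccr2.

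This scatter was shared by some genes and not by others. Log2 ratios were centred within each diet, and of 45 pairs 9 passed an adjusted permutation p of 0.05 by Pearson's r, all 9 positive, and 4 of these passed by Spearman's rho too. All pairs share arrays and the reference pool. Ccl2 and Ccl7 varied almost as one, with r = 0.96 and rho = 0.85 (p = 1e-05 for r, the smallest that 100000 permutations can give, adjusted p = 0.00045 for r and 0.00315 for rho). Without rats 18 and 17, the farthest from the median, r was 0.94, and it was 0.99 within high calcium rats and 0.90 within low calcium rats. Ccl3 and Ccl4 had r = 0.85 and rho = 0.82 (permutation p = 6e-05, adjusted p = 0.00135 for r and 0.00315 for rho), with r = 0.80 without rats 3 and 16, the 2 farthest, and 0.85 within either diet. Ccl11 went with its neighbours, at r = 0.81 and rho = 0.83 with Ccl7 (permutation p = 0.00042, adjusted 0.0063 for r and 0.00615 for rho) and r = 0.75 and rho = 0.72 with Ccl2 (permutation p = 0.00159, adjusted 0.0143 for r and 0.0288 for rho). Without rats 18 and 17 these were 0.72 and 0.63. Within low calcium rats they were 0.64 and 0.44, and without rat 18 they missed the threshold (adjusted p = 0.0599 and 0.0967).

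The other 5 pairs that passed by r joined the groups but rested on few animals. Ccr2 correlated with Ccl11 (r = 0.78, rho = 0.64), Ccl3 (r = 0.68, rho = 0.54) and Ccl4 (r = 0.66, rho = 0.58), with adjusted permutation p of 0.0115, 0.0266 and 0.0352. Without the 2 farthest rats these were 0.61, 0.39 and 0.49. Ccl4 correlated with Ccl11 (r = 0.68, rho = 0.64) and Ccl7 (r = 0.65, rho = 0.60), with adjusted permutation p of 0.0338 and 0.0426, and r was 0.50 and 0.54 without the 2 farthest rats. By rho, the adjusted p of these 5 pairs ran from 0.107 to 0.130. Without rat 18 alone, 2 of the 45 pairs passed, and these were Ccl2 with Ccl7 and Ccl3 with Ccl4. Ccr2 and its ligand Ccl2 had r = 0.58 (rho = 0.26, adjusted permutation p = 0.119), with 0.27 without the 2 farthest rats, 0.79 within high calcium rats and -0.22 within low calcium rats.

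No pair with Ccl20, Ccl6, Ccl5 or Ccl22 passed. Ccl22 came closest with Ccl7 (r = 0.65, adjusted permutation p = 0.0617) and Ccl5 with Ccl4 (r = 0.59, adjusted permutation p = 0.0803). The r of Ccl20 with the other genes ran from -0.16 (Ccl5) to 0.23 (Ccl22), and that of Ccl6 from -0.22 (Ccl5) to 0.40 (Ccl3). Ccl6 lies beside Ccl3 and Ccl4, and its r with Ccl4 was 0.06.

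**Figure D4:**
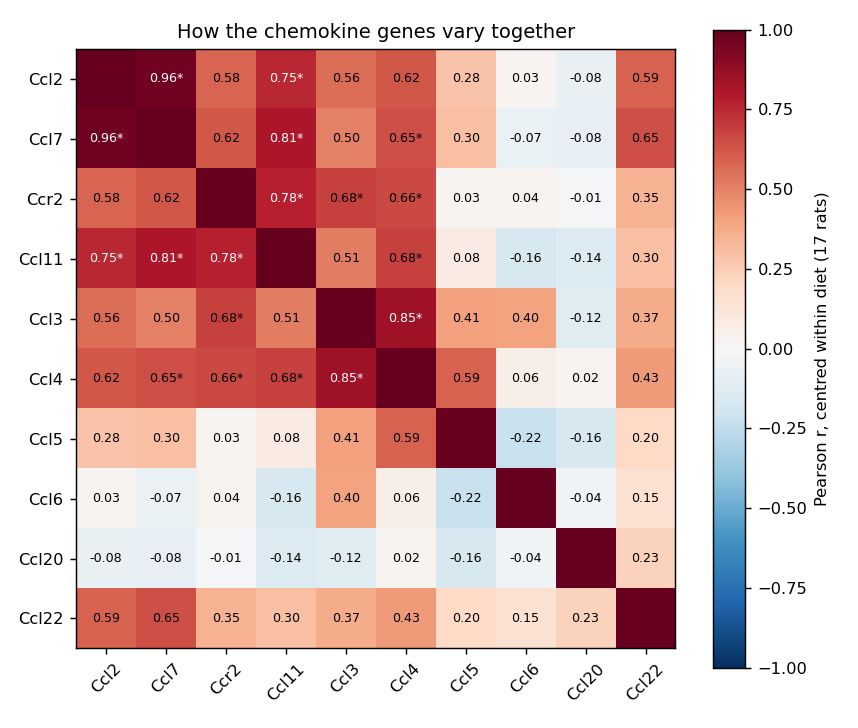
Pearson's r of each pair of genes over 17 rats, after centring within diet, from -1 (blue) to 1 (red), with an asterisk where the adjusted permutation p is below 0.05. Ccl2, Ccl7 and Ccl11 form a block and Ccl3 and Ccl4 another, with asterisks between the blocks for Ccl4 with Ccl7 and with Ccl11. Ccr2 has asterisks with Ccl11, Ccl3 and Ccl4, and the Ccl20 and Ccl6 rows are pale.

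**Figure D5:**
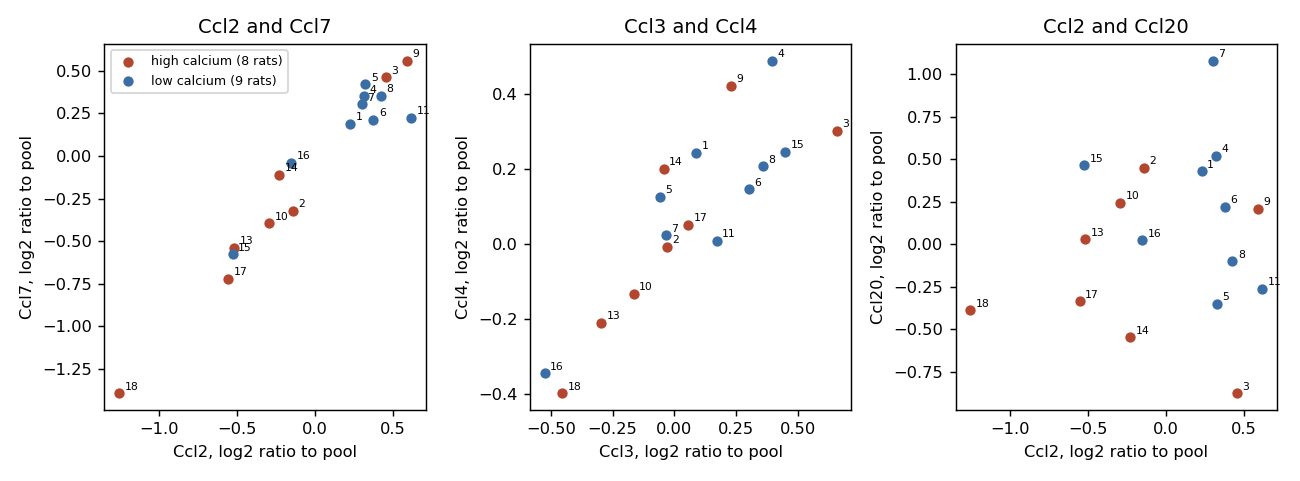
Log2 ratios of each rat for Ccl2 and Ccl7 (left), Ccl3 and Ccl4 (middle) and Ccl2 and Ccl20 (right), high calcium rats in red and low calcium rats in blue, with rat numbers. The first pairs of genes follow a line through both diets (r = 0.96 and 0.85), and Ccl20 does not follow Ccl2 (r = -0.08).

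Ligands and receptors outside the 10 genes gave 10 further relations, chosen with results known, of which 3 passed an adjusted permutation p of 0.05. Ccl22 and Ccl17, which share the receptor Ccr4, had r = 0.90 and rho = 0.90 (permutation p = 3e-05, adjusted p = 3e-04 for each), with 0.89 within high calcium and 0.91 within low calcium rats and 0.90 without the 2 farthest rats. Ccl20 and Ccr6 had r = 0.75 and rho = 0.72 (permutation p = 0.00119, adjusted p = 0.00595 for r and 0.0149 for rho), with 0.69 within high calcium and 0.85 within low calcium rats and 0.61 without rats 7 and 3. Ccl3 with Ccr1 (r = 0.70, rho = 0.54, permutation p = 0.00312, adjusted p = 0.0104) rested in part on rats 3 and 16, without which r was 0.40, and its rho did not pass (adjusted p = 0.108). Ccl12, the monocyte chemokine that follows Ccl11 on the chromosome, did not pass with Ccl2 (r = 0.27, rho = 0.32), Ccl7 (r = 0.25) or Ccl11 (r = 0.14), with adjusted p of 0.519, 0.525 and 0.699. Its diet difference was 0.16 ± 0.12 (SE), opposite in sign to those of Ccl2, Ccl7 and Ccl11.

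By a fixed rule, the 3 named genes with the highest r to each member over the 17 rats, centred within diet, are given as a description among 26968 probes. For Ccl2 they were Cxcl10, an interferon-induced chemokine (r = 0.95), Tagln, a smooth muscle and myofibroblast protein (0.93), and the collagen gene Col1a2 (0.92). For Ccl7 they were Tagln (0.94), Podxl (0.93) and Ifitm3 (0.93), and for Ccl11 the stromal chemokine Cxcl12 (0.92), the collagen crosslinker Lox (0.91) and Zfp638 (0.90). For Ccl3 they were Anxa5 (0.88), Nppb (0.88) and the complement receptor C5ar1 (0.86), and for Ccl4 B3galnt1 (0.91), Bnip2 (0.91) and Tyrobp, a signalling adaptor of myeloid and NK cells (0.91). For Ccl5 the list began with the lymphocyte granzyme Gzmm (0.87), Senp5 (0.86) and Anapc10 (0.81). For Ccl20 it held Apoc3 (0.87), the gut chemokine Ccl25 (0.85) and Tnnt3 (0.83), and for Ccl22 it held Ccl17 (0.90), Ccdc80 (0.88) and Eloa (0.87). For Ccr2 it held Cmtm3 (0.93), Trps1 (0.91) and Afap1l1 (0.89), and for Ccl6 Gnat2 (0.93), Dusp1 (0.92) and Agpat3 (0.92). Cxcl10 differed between diets by 0.02 ± 0.13 (SE).

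Markers of the cell types that scraped mucosa can hold are set beside the genes here. The mean of the fibroblast markers ran from -0.61 to 0.17 in high calcium rats and from -0.15 to 0.36 in low calcium rats, with 11 of 12 tested markers lower, 9 of them at an unadjusted p below 0.05 (2 with median centring), and a median difference of -0.40. The smallest p were those of Dcn (-1.03 ± 0.22), Lum (-0.59 ± 0.13) and Col1a1 (-0.53 ± 0.12), with adjusted p of 0.142 by limma. The mean of the monocyte and macrophage markers ran from -0.47 to 0.08 in high calcium rats and from -0.13 to 0.25 in low calcium rats. Of these 21 of 23 were lower, 11 at an unadjusted p below 0.05 (3 with median centring), with a median of -0.13. Lyz2 (-0.64 ± 0.14), Gpnmb (-0.72 ± 0.16) and Trem2 (-0.94 ± 0.21) had the smallest p, and Cd163 was not well above background. Neutrophil markers had 10 of 11 lower, 6 at an unadjusted p below 0.05, with a median of -0.25, led by the gelatinase Mmp9 (-1.01 ± 0.21). Their mean ran from -0.50 to 0.25 in high calcium rats and from -0.17 to 0.45 in low calcium rats, while Mpo was not well above background. Colon epithelial markers had 13 of 16 higher with a median of 0.10, and their mean ran from -0.14 to 0.29 in high calcium rats and from -0.26 to 0.12 in low calcium rats. Endothelial markers had 6 of 7 lower (median -0.14), smooth muscle markers 6 of 9 lower (-0.09), T and NK cell markers 12 of 18 lower (-0.05), B and plasma cell markers 6 of 9 lower (-0.04), and dendritic cell markers 4 of 9 lower (0.01). At an unadjusted p below 0.05 these 5 lists had 4, 2, 2, 2 and 0 markers lower. With median centring the endothelial count was 1, and those of smooth muscle, T and NK cell, and B and plasma cell markers were 0. Higher at that level were 2 colon epithelial, 1 smooth muscle and 1 T and NK cell marker. Of all tested probes 4.84% were lower and 3.95% higher at that level, and 46.0% had a negative difference. In none of these lists did a marker pass the adjusted threshold. In scraped mucosa, fewer cells of a type and less RNA per cell cannot be told apart.

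Of 90 relations between the 10 genes and the 9 marker lists, 23 passed an adjusted permutation p of 0.05 by r. Ccl2 followed the fibroblast markers (r = 0.94, rho = 0.97, adjusted p = 3e-04 for r and 0.00045 for rho) and the smooth muscle markers (r = 0.88, rho = 0.91, with the same adjusted p), and ran against the epithelial ones (r = -0.61, rho = -0.52, adjusted p = 0.0375 for r and 0.131 for rho). Without the 2 farthest rats these were 0.93, 0.89 and -0.50. Ccl7 followed the fibroblast markers at r = 0.88 (rho = 0.84, adjusted p = 3e-04 and 0.0024), and Ccl11 at r = 0.73 (rho = 0.72, adjusted p = 0.0125 and 0.0283), with 0.86 and 0.56 without the 2 farthest rats. Both went with the smooth muscle markers too, Ccl7 at r = 0.85 (rho = 0.79, adjusted permutation p = 0.00126 and 0.0167). Ccl11 did so at r = 0.75 (rho = 0.82, adjusted permutation p = 0.0134 and 0.0167), and without the 2 farthest rats these r were 0.86 and 0.70. The r of Ccl2 with the monocyte and macrophage markers was 0.72 (rho = 0.65, adjusted p = 0.0213 and 0.0683), with 0.53 without the 2 farthest rats, 0.88 within high calcium and 0.35 within low calcium rats. The endothelial markers passed by r with Ccl7 (0.81), Ccl2 (0.79), Ccl11 (0.70) and Ccl22 (0.64). Their adjusted permutation p were 0.00411, 0.00711, 0.0219 and 0.0487 for r, and ran from 0.0807 to 0.113 for rho. Without the 2 farthest rats these r were 0.68, 0.66, 0.77 and 0.71. Ccl3 followed the monocyte and macrophage markers (r = 0.82, rho = 0.70, adjusted p = 0.00126 for r and 0.0350 for rho), at 0.71 without the 2 farthest rats, 0.82 within high calcium and 0.86 within low calcium rats. The neutrophil markers gave r = 0.81 with Ccl3 (rho = 0.66, adjusted p = 0.00427 for r and 0.0614 for rho) and 0.59 without the 2 farthest rats. Ccl4 followed the T and NK cell markers (r = 0.79, rho = 0.75, adjusted p = 0.00411 for r and 0.0234 for rho), as did Ccl5 (r = 0.69, rho = 0.61, adjusted p = 0.0145 for r and 0.0807 for rho). Without the 2 farthest rats r was 0.64 and 0.65. Ccl4 also went with the monocyte and macrophage markers, at r = 0.78 (rho = 0.66, adjusted p = 0.0056 for r and 0.0691 for rho, 0.55 without the 2 farthest rats), and Ccr2 did so at r = 0.77 (rho = 0.57, adjusted p = 0.0125 and 0.122, 0.49 without the 2 farthest rats). The fibroblast markers also passed by r with Ccl3 (r = 0.68, rho = 0.57, adjusted p = 0.0219) and Ccl4 (r = 0.65, rho = 0.50, adjusted p = 0.0326), with 0.44 and 0.42 without the 2 farthest rats. By r but not by rho, Ccl7 passed with the monocyte and macrophage markers (r = 0.69, adjusted permutation p = 0.0326). So did Ccr2 with the neutrophil markers (r = 0.70, adjusted permutation p = 0.0213) and Ccl3 with the T and NK cell markers (r = 0.65, adjusted permutation p = 0.0257). Without the 2 farthest rats these r were 0.46, 0.34 and 0.56. Several genes thus shared lists, and differences between these correlations were not tested. Ccl20 and Ccl6 passed with none of the lists. The part of cell content in the diet differences of Ccl2, Ccl7 and Ccl11 was not tested.

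Of the other CC chemokine genes, none passed the adjusted threshold. Among 7 tested ligands 4 were lower and 3 higher with 0 at an unadjusted p below 0.05, and the smallest p belonged to the lymphoid chemokine Ccl21 (-0.40 ± 0.24), Ccl17 and Ccl25 (-0.19 ± 0.14). Among 9 tested receptors 8 were lower, with a median of -0.08, and 2 of them, Ccr1 and Ccr6, had an unadjusted p below 0.05 (1 receptor with median centring or Cy5 alone). For comparison, 46.0% of all tested probes had a negative difference and 4.84% were lower at that level. Ccr1, the receptor of Ccl3, Ccl5 and Ccl7 on monocytes and neutrophils, ran from -0.57 (rat 18) through -0.26 to 0.07 in high calcium rats and from -0.20 through 0.06 to 0.33 (rat 6) in low calcium rats. On this receptor's probe 6 of 8 high calcium rats lay below all of the low calcium rats, a difference of -0.35 ± 0.08 (SE, unadjusted p = 0.000341, adjusted p = 0.149 by limma). Of the atypical receptor Ccrl2 the difference was 0.16 ± 0.09.

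Of the 24 tested NF-kappaB inducers and targets, 17 were lower and 7 higher with a median of -0.05, where 46.0% of all tested probes had a negative difference. At an unadjusted p below 0.05, 5 were lower, where 4.84% of all tested probes were. That count of 5 was 0 with median centring, 1 with array weights or without rat 18, 2 with processed signals or when rat 4, 8 or 17 was left out, and 3 when rat 1, 6, 7, 10, 13 or 15 was. It was also 3 with no background correction, Cy5 alone or the series matrix, and 6 without rats 3 and 16 together. The smallest p were those of the mitochondrial superoxide dismutase Sod2 (-0.27 ± 0.10), the adhesion molecule Vcam1 (-0.26 ± 0.11) and Il1b (-0.25 ± 0.11), with adjusted p of 0.448, 0.492 and 0.524 by limma.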

How the data were processed

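Colon mucosa of 17 rats was measured on 2-colour Agilent arrays, with the rat in Cy5 and the pool in Cy3 on every array, with no dye swap, so that any dye effect falls on both diets alike. The deposited scanner files hold spot intensity (mean and background signals, flags and processed signals) from Agilent Feature Extraction, version 9.5 per the submitters' processing notes. The series matrix deposited by the authors covers 28213 of 45018 features in log2 units. The steps behind it are not given in the sources used here. It followed the uncorrected log ratio of Cy5 to Cy3 (r = 0.979 across features and arrays, which are not independent). Its median was 8.76 on the array checked and was not taken on the others. Its offset is unknown, so it was used as an alternative.

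Intensities were corrected with normexp (offset 50) and normalized by loess within arrays with limma 3.58.1 in R 4.3.3, with control spots and outlier flags at weight 0. Spots of a probe were averaged, which gave 41012 probes. A probe was tested if Cy5 was well above background on at least 8 of the 17 arrays. Diets (high minus low) were compared with lmFit and eBayes, and p-values were adjusted over all 27101 probes by Benjamini-Hochberg, with 0.05 as the threshold. Where a gene had several probes, the brightest stood for it. The labels give separate animals. The scripts were tested on simulated data. Relations among rats used Pearson's r and Spearman's rho of diet-centred values, with 100000 permutations within diet, adjusted within each family. The genes named are all members, the 3 with the smallest unadjusted p of each further list, ligands and receptors of the members, and the 3 most like each member. The members, lists and tests were chosen with earlier results of these data known. The alternatives were 11 other settings, each rat left out in turn, and, added after seeing the data, rats 3 and 16 left out together and the pairs under the settings that change the values. Members were matched on the array's own names; other names were updated through RefSeq where an accession (10735 probes), symbol (5577) or synonym (3730) matched. Some ligand and receptor results are not reported here.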

Additional observations from a re-analysis of the deposited data

Results flagged for a closer look

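Within-diet outliers were searched for in 24 groups (12 probes by 2 diets) with Dixon's gap test, of which chance flags about 1 in 20 groups, and 3 values were found. In Ccl7, low calcium rat 15 lay at -0.58, below the next of the 9 low calcium rats at -0.04. The overlapping Ccl7 probe showed the same animal at -0.64, below the next at -0.11. In Ccr2, low calcium rat 4 lay at 0.22, above the next at 0.11.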

How the results depend on the processing

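By limma, 0 of the 12 probes passed the adjusted threshold in any alternative. The sign of the difference was kept for Ccl2, Ccl7, Ccr2, Ccl11, Ccl3, Ccl4, Ccl5, Ccl6 and Ccl20 in all of them. Ccl2 ran from -0.52 (array weights) to -0.41 (median centring) over other settings and from -0.57 to -0.31 over single rats left out. Without rats 3 and 16 together it was -0.60. Ccl22 reversed to 0.0065 with no background correction, 0.0078 with processed signals, 0.050 with median centring, 0.046 with Cy5 alone and 0.034 with array weights. Leaving out single rats it ran from -0.089 to 0.050, reversed without rats 17, 18 (0.0070) and 7 (0.020), and its dim probe ran from -0.069 to 0.0038. The count of 4 probes at an unadjusted p below 0.05 was 0 with median centring and 1 with a variance trend, and 0 to 5 without single rats. Over all probes, leaving out single rats gave 0 to 193 past the adjusted threshold, and leaving out rats 3 and 16 gave 328 and a median of -0.25 for the 10 genes. Of all 45 pairs, 9 passed in the main setting. The count was 5 with no background correction, 4 with processed signals, 4 in the series matrix and 36 with median centring. It was 5 without rats 3 and 16, and ran from 2 to 14 (without low calcium rat 15) over single rats left out. The causes were not tested. Ccl2 with Ccl7 and Ccl3 with Ccl4 passed in all 7 other settings, among them that without rats 3 and 16, and without each of 17 rats. The median of the other CC ligands was 0.019 without rat 11 and 0.030 without rats 3 and 16. No paired analysis was possible because the diets share no replicate numbers. Signal over background limits Ccr2 and the dim Ccl22 probe.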

Other observations

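The homeostatic lymphoid chemokine Ccl19, singled out after its values were seen, varied among rats more than any of the 10 genes. It averaged -0.28 ± 0.94 in high calcium rats and -0.17 ± 1.01 in low calcium rats (SD, n = 8 and 9), a difference of -0.11 ± 0.40 (SE, adjusted p = 0.962 by limma). Ccl21, its companion in drawing Ccr7-bearing cells, averaged -0.33 ± 0.54 in high calcium rats and 0.08 ± 0.62 in low calcium rats, and Ccr7 itself differed by -0.04 ± 0.05.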
